A study of Mus musculus with 6 samples.

Results

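Cells use inositol phosphates as soluble messengers. When phospholipase C cleaves a membrane phosphoinositide, inositol trisphosphate (IP3) is released and opens IP3 receptors, the calcium channels of the endoplasmic reticulum. IP3 3-kinases convert IP3 into IP4, which ends its action on the receptors, and further kinases build the higher inositol phosphates and pyrophosphates. In blood cells this pathway is best known for calcium signals downstream of antigen and cytokine receptors, and SHIP1, a phosphatase largely restricted to blood cells, removes a phosphate from the related membrane lipid PIP3.

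The 10 genes described here encode the IP3 3-kinases (Itpka, Itpkb, Itpkc), other inositol phosphate kinases (Itpk1, Ipmk, Ip6k1), the IP3 receptors (Itpr1, Itpr2, Itpr3) and SHIP1 (Inpp5d). They were taken by symbol from a count table of 54532 genes, and each matched a single row. The family was selected on the measured level of Itpkc, which earlier results of the same 6 libraries had shown to be higher in one of the bone marrow regions compared here. The difference between regions is therefore given below as a description of these genes. Counts of members past the thresholds of tests run over all genes are also given, and nothing is read from them.

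RNA-seq was done on leukemia cells from C57BL/6 mice in which c-Kit+ hematopoietic stem and progenitor cells had been transduced with a retrovirus carrying AE9a, a splice variant of the AML1-ETO fusion of human acute myeloid leukemia, together with GFP. The cells came from mice of the third generation of transplantation. Central bone marrow (CBM) was flushed from femurs and tibias, and endosteal bone marrow (EBM) was then released from the remaining bone with collagenase I, with 3 libraries from each region. Every library carried AE9a, and no age of the mice is given in the labels. All EBM and no CBM libraries were digested, so digestion and region cannot be told apart. The sources do not state whether the 3 libraries of a region came from separate mice, and the spread between them may in part be technical. Whether CBM and EBM libraries of the same number came from the same mice is not stated either, and the main fit treats them as unpaired.

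Libraries held 16436526 to 19462964 counts on genes. A floor of 3 counts corresponded to between 0.149 and 0.193 CPM (counts scaled to library size with TMM factors), and this floor covers counting error only. The progenitor genes Kit (196 to 239 CPM) and Myb (268 to 352 CPM) were abundant in every library, whereas Ptprc, which encodes the pan-leukocyte protein CD45, was between 0.0992 and 3.58 CPM and Mpo between 1.65 and 35.8 CPM. The other progenitor genes examined were also low, with Cd34 at 1.16 to 16.4 CPM and Ctsg, Elane, Prtn3, Cd33 and Flt3 at most at 14.7 CPM. Erythroid genes were also abundant, with a sum of 1994 to 5311 CPM over 6 genes. Of other cell types, the B cell gene Ms4a1, the osteoblast genes Alpl and Sp7, the endothelial genes Emcn and Flt4 and the osteoclast genes Ocstamp, Dcstamp and Calcr were at 0 in all 6 libraries, which allows a level up to the floor. Other genes of the same lists were detected in every library, Cd79b of B cells at 6.30 to 13.8 CPM, Runx2 of osteoblasts at 6.62 to 11.8 CPM, Eng of endothelium at 36.4 to 65.7 CPM and Acp5 of osteoclasts at 258 to 565 CPM, so the presence of these cell types was not settled. CBM 2 and EBM 3 stood apart on the first principal component of log2 CPM, which held 53.0% of the variance, with scores of 42.9 and 46.0 against -38.5 to 5.81 in the other libraries.

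Itpkc, whose product phosphorylates IP3 and is known in human T cells as a brake on calcium-dependent NFAT signaling, was the member that differed most between the regions. Its level was 17.9, 15.7 and 14.8 CPM in the CBM libraries and 74.8, 59.1 and 55.0 CPM in the EBM libraries. The lowest EBM library was 3.07 times the highest CBM library, so the regions did not overlap. The means were 16.2 ± 1.59 CPM (SD, n = 3) in CBM and 63.0 ± 10.5 CPM (SD, n = 3) in EBM, a log2 fold change of 1.96 ± 0.16 (SE). Without CBM 2 and without EBM 3, the libraries that stood apart, it was 1.94 and 2.04. These levels rest on 299 to 315 counts per CBM library and 856 to 1355 counts per EBM library. Among the 13352 genes that passed the filter on low counts, 41 genes (0.307%), Itpkc included, had a log2 fold change as large in either direction. In bulk libraries, a change in the share of cells that express the gene and a change in its RNA per cell cannot be told apart.

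Itpkb, the 3-kinase known for its role in lymphocyte development and in blood stem cell quiescence, was at 133, 106 and 115 CPM in CBM and at 145, 125 and 118 CPM in EBM. The ranges of the regions overlapped, and the log2 fold change was 0.13 ± 0.13 (95% confidence interval -0.17 to 0.42). Itpka, the 3-kinase best known from neurons, was close to the limit of detection, with 14, 26 and 38 counts in CBM and 15, 34 and 37 counts in EBM. Its log2 fold change of 0.32 ± 0.48 had an interval from -0.83 to 1.47. A difference of such a size was therefore not detectable with these libraries, and without EBM 3 the value was -0.0051.

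**Figure D1:**
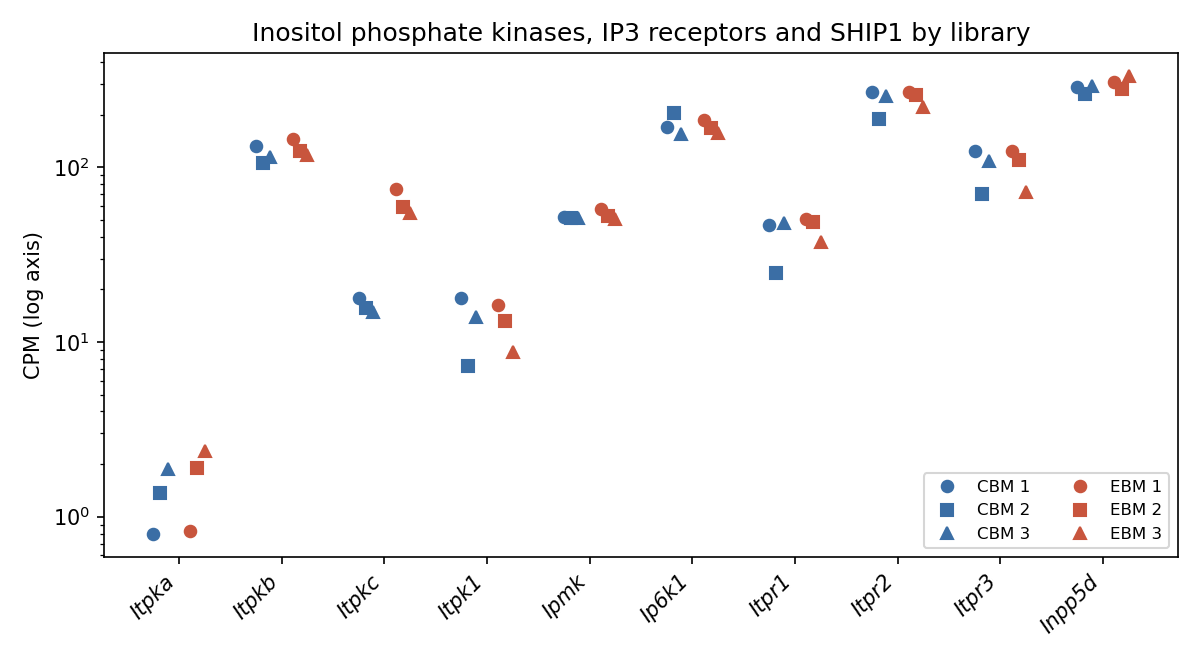
Level of each of the 10 genes in CPM (log axis) in the 3 CBM libraries (blue) and the 3 EBM libraries (red), with a marker shape for each library number. Itpkc is the only gene of the 10 whose regions do not overlap, at 14.8 to 17.9 CPM in CBM and 55.0 to 74.8 CPM in EBM.

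Scaled by the gene length given in the table (RPKM, here CPM per kilobase), which allows levels of different genes to be set side by side, Itpkb was the main 3-kinase transcript in CBM, with 74.7% ± 1.96 (SD, n = 3) of the summed RPKM of the 3 genes. Itpkc held 20.46%, 21.42% and 18.97% of this sum in the CBM libraries and 49.79%, 46.34% and 45.27% in the EBM libraries. Itpkb and Itpkc thus had nearly equal shares in EBM, where the mean shares were 49.0% ± 0.371 for Itpkb and 47.1% ± 2.36 for Itpkc. The summed RPKM of the 3-kinases was 16.6, 13.9 and 14.8 in CBM and 28.4, 24.1 and 23.0 in EBM. Itpka held 5.02% ± 2.21 of the sum in CBM and 3.87% ± 2.08 in EBM. Since the share of Itpkc uses the same counts as its difference between regions, it describes that difference and is no separate evidence of it. The gene length of Itpkc in the table is 5285 bases, whereas its single coding transcript has 3247 bases, so that its RPKM is lower than it would be per base of the coding transcript. Its share depends on the lengths used for Itpka and Itpkb as well, and the effect of coding transcript lengths on the shares was not examined.

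**Figure D2:**
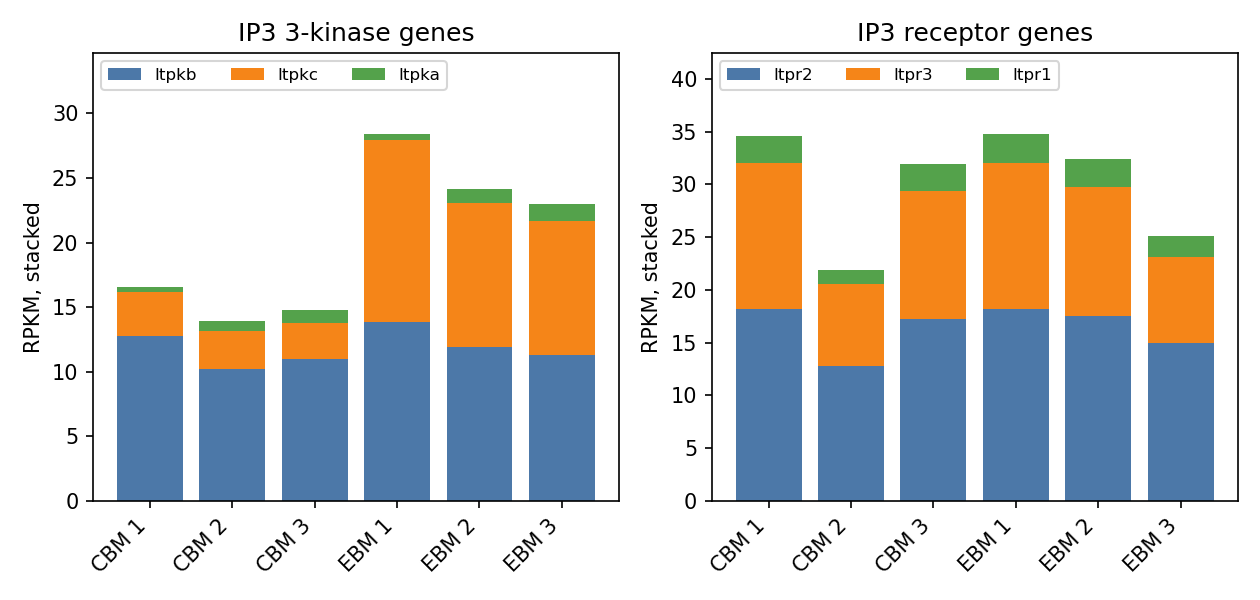
Stacked RPKM of the 3-kinase genes (left) and the IP3 receptor genes (right) in each library, with bars starting at 0 and colors for genes. The Itpkc segment makes up 18.97% to 21.42% of the left bars in CBM and 45.27% to 49.79% in EBM, while Itpr2 is the largest segment of every right bar.

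The IP3 receptors release calcium from the endoplasmic reticulum, and their subtypes differ in sensitivity to IP3, with Itpr2 encoding the most sensitive. Itpr2 was the most abundant receptor transcript in every library, with 54.9% ± 2.94 (SD, n = 3) of the summed receptor RPKM in CBM and 55.4% ± 3.902 in EBM. Itpr3 held 37.9% ± 2.25 and 36.6% ± 3.98, and Itpr1 held 7.23% ± 0.978 and 8.06% ± 0.143. The mean shares of Itpr2 and Itpr3 differed between regions by less than the SD of either region, and that of Itpr1 by less than the SD in CBM but more than that in EBM.

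Itpr2 was at 269, 189 and 255 CPM in CBM and at 269, 260 and 222 CPM in EBM, with a log2 fold change of 0.07 ± 0.16 (95% confidence interval -0.30 to 0.45). For Itpr3, the levels were 125, 70.2 and 109 CPM in CBM and 125, 109 and 72.6 CPM in EBM, and the log2 fold change was 0.01 ± 0.27 (-0.62 to 0.65). Itpr1 was at 46.5, 24.9 and 47.7 CPM in CBM and at 50.3, 48.5 and 37.3 CPM in EBM, with a log2 fold change of 0.19 ± 0.26 (-0.43 to 0.82). In all 3 receptor genes the regions overlapped and the same libraries, CBM 2 and EBM 3, were the lowest. Without CBM 2 the log2 fold change was -0.066 for Itpr2, -0.19 for Itpr3 and -0.054 for Itpr1, and that of Itpr3 was also below 0 without EBM 1 (-0.16) or EBM 2 (-0.042).

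This spread between libraries within a region was shared with Itpk1. Its product, a kinase that feeds the synthesis of higher inositol phosphates, had transcript levels of 17.9, 7.32 and 13.9 CPM in CBM and 16.3, 13.1 and 8.80 CPM in EBM. CBM 2 and EBM 3 were the lowest libraries for these 4 genes of the 10, against 16.7% of all genes tested. The highest library was 2.44 times the lowest for Itpk1, 2.02 times for Itpr1, 1.78 times for Itpr3 and 1.43 times for Itpr2. The summed RPKM of the receptors was 21.9 in CBM 2 and 25.1 in EBM 3 and between 32.0 and 34.8 in the other libraries.

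The summed erythroid level moved the other way, though not every gene of the list did. The summed CPM of the 6 erythroid genes was 5311 in CBM 2 and 3651 in EBM 3, against 1994 and 2343 in the other CBM libraries and 2386 and 3310 in the other EBM libraries. Hba-a1 made up much of this sum, with 3051 CPM in CBM 2 and 2078 CPM in EBM 3. Hbb-bs and Hbb-bt were highest in CBM 2 but, at 807 and 73.1 CPM, lowest of the EBM libraries in EBM 3. The osteoclast list, whose sum was mostly Acp5 with 3 of its 6 genes at most at the floor, followed the same libraries, with 549 CPM in CBM 2, 566 CPM in EBM 3 and 259 to 365 CPM in the others. Mature neutrophil genes summed to 227 CPM in CBM 2, 163 CPM in EBM 2 and 3.37 to 49.4 CPM in the rest. The part of these markers in the spread of the receptor genes was not tested.

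**Figure D3:**
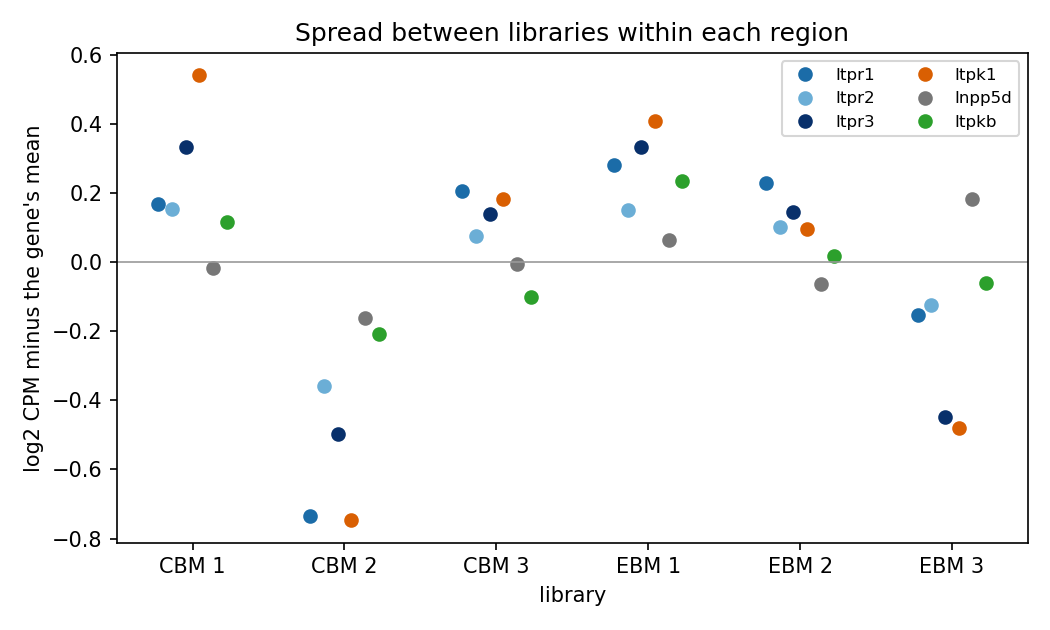
log2 CPM of 6 genes in each library minus the gene's mean over the 6 libraries, with points offset sideways for legibility. Itpr1, Itpr2, Itpr3 and Itpk1 are lowest in CBM 2 and EBM 3, whereas Inpp5d is highest in EBM 3.

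The remaining kinases and SHIP1 varied less. Ipmk, a multikinase that acts on several inositol phosphates, was the steadiest of the 10 genes, with 52.0, 51.5 and 51.2 CPM in CBM and 58.0, 52.4 and 51.0 CPM in EBM. Ip6k1, which makes the inositol pyrophosphate IP7, was at 171, 205 and 155 CPM in CBM and at 186, 168 and 157 CPM in EBM. Inpp5d was at 290, 263 and 293 CPM in CBM and at 307, 282 and 334 CPM in EBM. The regions overlapped in all 3 genes.

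Their log2 fold changes were 0.06 ± 0.09 (95% confidence interval -0.16 to 0.28) for Ipmk, -0.06 ± 0.13 (-0.37 to 0.26) for Ip6k1 and 0.12 ± 0.10 (-0.12 to 0.37) for Inpp5d. The upper bounds were 0.26 to 0.37, against 1.96 for Itpkc, which was selected for its difference. Without CBM 2 the value for Ip6k1 was 0.067. For Itpk1 the log2 fold change was -0.03 ± 0.36 (-0.90 to 0.83), the widest interval of the 10 genes after that of Itpka. It was 0.26 without CBM 1, 0.017 without CBM 3 and 0.16 without EBM 3.

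By RPKM over all libraries, Inpp5d was the most abundant transcript of the 10 (38.8), followed by Ip6k1 (26.8), Itpr2 (16.5), Itpkb (11.8), Itpr3 (11.3), Itpkc (7.49), Ipmk (7.42), Itpk1 (3.88), Itpr1 (2.32) and Itpka (0.839). In this order the ranges over the 6 libraries did not overlap between Inpp5d and Ip6k1, between Ip6k1 and Itpr2, between Ipmk and Itpk1, and between Itpr1 and Itpka. Itpr2 exceeded Itpkb, and Itpk1 exceeded Itpr1, in 6 of 6 libraries with overlapping ranges. Itpkb exceeded Itpr3 in 2 of 6 libraries, Itpr3 exceeded Itpkc in 4 of 6, and Itpkc exceeded Ipmk in 3 of 6, so that the place of Itpkc among them was not settled over both regions. Itpkc took place 8 of the 10 in CBM, at an RPKM of 3.06 ± 0.301 (SD, n = 3), and place 5 in EBM, at 11.9 ± 1.98.

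Of the 10 members, 8 had a log2 fold change above 0 and 2 below it, where 50.4% of all genes tested were above 0. By edgeR's quasi-likelihood test none passed an adjusted p of 0.05, as was so for all 13352 genes tested after the filter on low counts (0% called). At an unadjusted p under 0.05 there was 1 member, Itpkc, higher in EBM, where 7.91% of all genes were called in either direction, 4.01% as higher and 3.9% as lower in EBM. With DESeq2, where 1.36% of genes passed an adjusted p of 0.05, there was also 1, again Itpkc. Regions did not overlap in CPM for 1 of the 10 members, against 15.1% of all genes, 7.47% with EBM above CBM and 7.65% with EBM below. Without the filter on low counts, 1 member, Itpkc, passed the adjusted threshold, where 0.161% of genes did. The median log2 fold change was 0.10 over the members, 0.07 without Itpkc and 0.0017 over all genes. As the members were chosen with this comparison known, nothing is read from these counts.

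**Figure D4:**
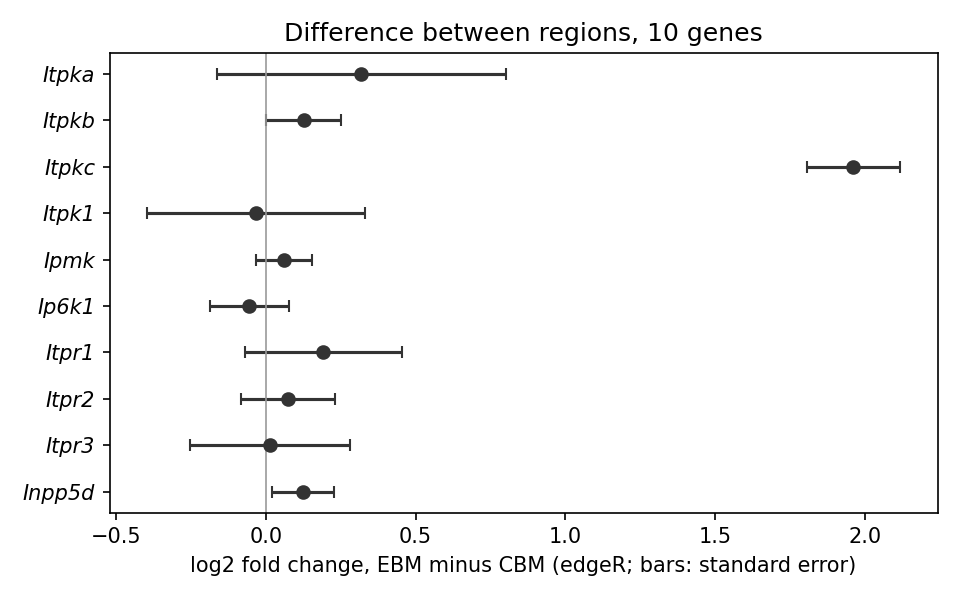
log2 fold change of EBM over CBM for each of the 10 genes from edgeR's fit, with bars for the standard error. Itpkc lies at 1.96 and the other 9 genes between -0.06 and 0.32.

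Itpkc lies on the minus strand of chromosome 7, at chr7:27207172-27228661 in the mouse build GRCm38. Its coding transcript has 7 exons. The last exon, at chr7:27207172-27208444 and 1273 bases long, is overlapped over its whole length by exons of BC024978, a gene on the opposite strand at chr7:27195781-27210186. These shared bases are 24.1% of the exon bases of Itpkc, and since the counting is not stated to use strand, reads from the pair may not be fully separated. BC024978 had 179, 178 and 160 counts in CBM and 243, 317 and 197 counts in EBM, so the regions did not overlap. Its log2 fold change of 0.67 ± 0.19 was smaller than that of Itpkc and did not pass the threshold (Benjamini-Hochberg adjusted p = 0.417, edgeR). In every EBM library BC024978 had fewer counts than Itpkc, which had 1355, 1061 and 856. The 50-base stretches of member transcripts were also looked for, on either strand, in transcripts of other genes. They occurred there for 23.2% of Itpkc, 14.7% of Ip6k1 and at most 1.51% of the other members, and none was shared between members. For Itpkc this share takes in the overlap with BC024978 described above.

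The tested genes around Itpkc had smaller differences than Itpkc, which was itself selected for its difference. Of 14 genes within 50 kb, 7 were tested, and BC024978 was the only one at an unadjusted p under 0.05. Snrpa, which encodes a spliceosomal protein, had a log2 fold change of 0.18, Egln2, an oxygen-sensing prolyl hydroxylase, of -0.12, and Coq8b, which acts in coenzyme Q synthesis, of 0.27. Numbl was at 0.09, Rab4b at -0.0039 and the antisense gene Gm15567, with 3 to 22 counts per library, at 0.63.

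The promoter of Itpkc is shown because it is the member that differed between regions. The stretch covers chr7:27228629-27228867 on the minus strand of GRCm38.p6 (RefSeq), 239 bases that end just before the annotated start of the coding transcript, and capitals mark both matches, on either strand, to a loose form of the NF-κB motif, GGG and CC with any 5 bases between them.

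Itpkc: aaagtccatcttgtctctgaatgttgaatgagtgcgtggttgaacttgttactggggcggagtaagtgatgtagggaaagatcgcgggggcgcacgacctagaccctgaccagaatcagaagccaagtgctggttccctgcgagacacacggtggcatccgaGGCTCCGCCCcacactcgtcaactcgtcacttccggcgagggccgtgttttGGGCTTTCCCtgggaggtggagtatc

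These matches begin 77 and 26 bases before the start of the coding transcript. The annotated gene extends to chr7:27228661, so the end of the stretch, with the match at 26 bases, lies within the gene. The motif is common, since 44.1% of 32851 promoter windows held it. The GC box GGGCGG was also matched at 2 places, 1 of which overlaps the upstream NF-κB match, and 31.2% of windows held it. The heat shock motif (GAA, TTC and GAA with any 2 bases between each), the cyclic AMP motif TGACGTCA, the AP-1 motif TGANTCA and the NFAT motif TGGAAA had no match on either strand. They were held by 0.438%, 1.42%, 6.57% and 17.9% of windows. A match describes letters of the sequence and is not a site of binding.

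The genes whose log2 CPM followed Itpkc most closely over the 6 libraries were Ing3 (Pearson r = 0.993), Hspa1a (0.990), Ndel1 (0.987), Coq7 (0.987) and Hist2h2be (0.987), and 90 of 13352 genes had an r above 0.95. Ing3, a subunit of a histone acetyltransferase complex, was at 41.4, 40.9 and 38.1 CPM in CBM and at 66.7, 57.9 and 59.9 CPM in EBM. Hspa1a, an inducible heat shock protein, had 2 counts in each CBM library and 53, 50 and 22 counts in the EBM libraries. With 3 libraries in each region, such an r mostly reflects the step between regions, and it is given as a description.

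Once the mean of each region was subtracted, the closest genes were Runx1t1 (r = 0.998), Amz2 (0.995), Gm5312 (0.994), Ppp2r3d (0.993) and Noxred1 (0.993), with 96 of 13352 genes above 0.95. With 3 libraries in each region, few independent values are left after this step. Some unrelated genes among so many can then reach an r this high, so these values too are only a description. Runx1t1, the mouse gene for the ETO portion of the fusion, was at 30.7, 23.9 and 20.5 CPM in CBM and at 41.0, 26.5 and 22.5 CPM in EBM. Its libraries stood in the same order as those of Itpkc within each region, but its regions overlapped. Every library carried AE9a, and the part of the retrovirus in these counts was not tested. None of the 5 genes closest over the 6 libraries was among the 5 closest within regions.

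Genes that respond to enzymatic digestion of tissue were examined beside Itpkc, since digestion and region coincide. Of 19 such genes, all tested, 14 had a log2 fold change above 0 and 5 below, and 5 were higher and 1 lower in EBM at an unadjusted p under 0.05 (7.91% of all genes). Named after their values were seen, the 5 were Hspa1a, Hspa1b, Nr4a1, Nfkbia and Jund, and the lower one was Dusp1. None passed the adjusted threshold with edgeR, and 3 did with DESeq2. Without CBM 1, 10 genes of the list were higher and 1 lower, and without CBM 3 there were 4 and 2. Hspa1b was at 9.50, 3.74 and 3.37 CPM in CBM and at 112, 50.3 and 58.6 CPM in EBM. The summed CPM of the list overlapped between regions, at 5798 to 13820 in CBM and 12010 to 13750 in EBM. Fosb, at 944 to 5011 CPM, and Klf6, at 1198 to 2126 CPM, were large parts of this sum. Hspa1a and Hspa1b, at most at 2.93 and 112 CPM, added little to it. The part of digestion in the level of Itpkc was not tested.

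Other genes of the pathway, upstream and downstream of IP3, differed less between the regions than Itpkc did. Since Itpkc was selected for its difference, nothing is read from this ordering. Of 114 further genes found in the table, 94 were tested, 39 with a log2 fold change above 0 and 55 below, and none passed an adjusted p of 0.05 with edgeR or with DESeq2. At an unadjusted p under 0.05, 1 gene was higher and 5 were lower in EBM, which is 6.38% of the genes tested against 7.91% of all genes. The median log2 fold change was -0.02. The count of 6 fell to 1 without CBM 3, to 0 without EBM 2 and to 3 without EBM 3.

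Among the enzymes that make and break down IP3, none was at an unadjusted p under 0.05. The phospholipase C family, whose active enzymes release IP3, had 8 of 14 genes tested. Of these, 5 were above 0 and 3 below, with a median of 0.08 on the log2 scale. The 5 included the phospholipase C-like genes Plcl1 (0.36) and Plcl2 (0.18). Phosphatases of inositol phosphates and phosphoinositides had 20 genes tested, of which 15 were below 0 and 5 above, with a median of -0.08. The 4 further inositol phosphate kinases tested had a median of -0.06, with 1 above 0, and the 3 genes of inositol supply were all above 0, with a median of 0.18.

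Proteins that bind or regulate IP3 receptors had 13 genes tested, 5 above 0 and 8 below. Itpripl1, a relative of an IP3 receptor interacting protein, was at 38.6, 46.9 and 51.0 CPM in CBM and at 22.2, 26.0 and 38.0 CPM in EBM. Its regions did not overlap, with a log2 fold change of -0.66 ± 0.22 (adjusted p = 0.516, edgeR). Erlin2, a part of the complex that directs activated IP3 receptors to degradation, had a log2 fold change of -0.27 ± 0.10 (adjusted p = 0.583).

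Calcium store and entry genes had 15 tested, 10 above 0 and 5 below. Saraf, which dampens store-operated calcium entry, was at 144, 114 and 112 CPM in CBM and at 169, 151 and 150.5 CPM in EBM, with a log2 fold change of 0.35 ± 0.12 (adjusted p = 0.552). Orai3, a subunit of store-operated calcium channels, had a log2 fold change of -0.30 ± 0.11 (adjusted p = 0.575). In both genes the regions did not overlap in CPM.

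For calmodulin, calcineurin and NFAT, 16 genes were tested, 4 above 0 and 12 below, and Rcan3, a regulator of calcineurin, was at -0.40 ± 0.14 (adjusted p = 0.552). The list called PIP3 and IP4 effectors also holds PI3K subunits, which act in making PIP3 and do not read it out. It had 15 genes tested, 6 above 0 and 9 below. Pik3cg, the catalytic subunit of PI3K gamma, was at -0.21 ± 0.09 (adjusted p = 0.630, edgeR). The size of each was below that of Itpkc, from which nothing is read, as Itpkc was selected for its difference.

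**Figure D5:**
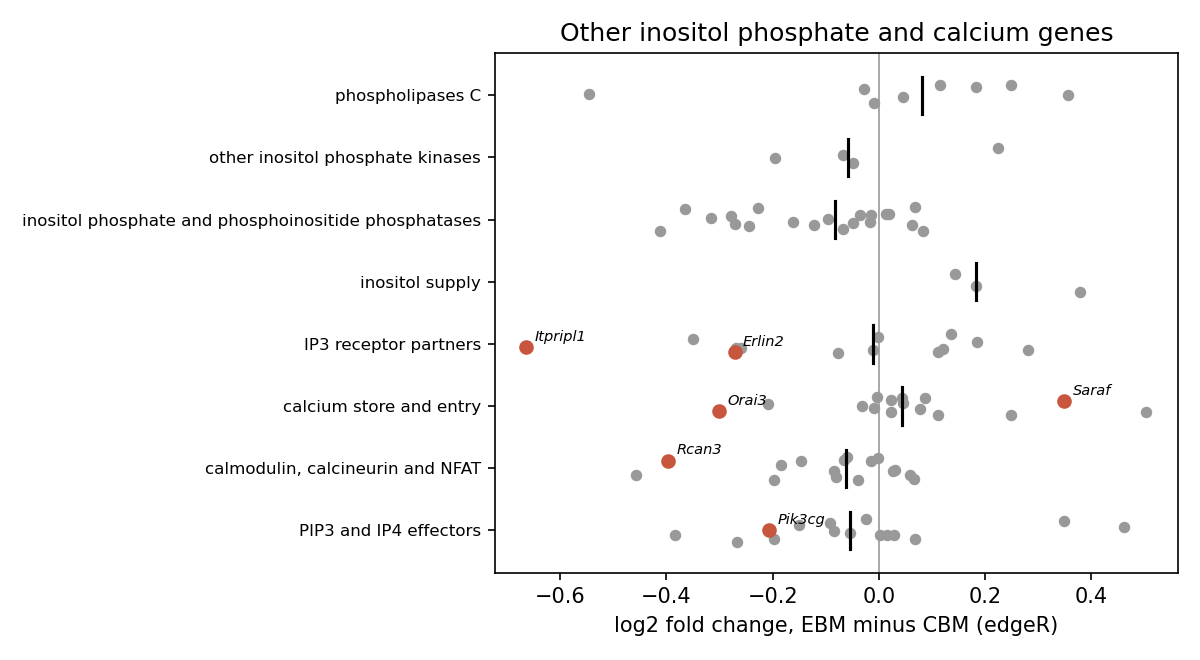
log2 fold change of EBM over CBM for the 94 other pathway genes tested, by list, with black bars for medians and points offset for legibility. Red points are the 6 genes at an unadjusted p under 0.05, which lie between -0.66 (Itpripl1) and 0.35 (Saraf).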

How the data were processed

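From isolated leukemia cells, RNA was depleted of rRNA (the labels give the library type as mRNA) and made into directional libraries. The authors sequenced paired-end reads of 150 bp and deposited raw counts per gene with coordinates and a gene length. HISAT2 2.0.5 and mm10 are listed in the submitters' processing notes. The counting tool and its strand setting are not given in the sources used here.

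Counts were filtered with filterByExpr, normalized by TMM and tested with edgeR 4.0.16 (quasi-likelihood, Benjamini-Hochberg) under R 4.3.3, with the 3 CBM and 3 EBM libraries and no block. The standard error is the absolute log2 fold change over the square root of F. log2 CPM used a prior count of 2. DESeq2 1.42.0 and limma 3.58.1 served as alternatives, and the methods were tested on simulated data.

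The members and gene lists were chosen with earlier results of these data known. Named beside them were, per pathway list, up to 3 genes per direction with the smallest unadjusted p under 0.05, the 5 genes most correlated with Itpkc by each measure, and tested genes within 50 kb. Of 115 pathway symbols, Itprip was not analysed here. All 10 members had the same coordinates in GENCODE M21. Promoters of 9 members were found in RefSeq. Of the erythroid marker list, 1 gene is not reported here and was left out of its sum.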

Additional observations from a re-analysis of the deposited data

How the results depend on the processing

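The count of genes past an adjusted p of 0.05 was 0 in edgeR's main test (1056 at an unadjusted p under 0.05), 173 with DESeq2 and 40 without a filter on low counts. Among the members it was 0, 1 and 1, Itpkc under both alternatives. As Itpkc was selected for its difference, nothing is read from its calls. The count over all genes and that over the members were 0 under the other alternatives, from 0 to 0 with each library left out. Itpkc kept a log2 fold change between 1.82 and 2.04 over all alternatives. Whether replicate numbers pair the libraries is not known. The deviations of same-numbered libraries correlated at 0.676, -0.204 and 0.203, which cannot decide it with 3 libraries in each region. The fit with the replicate block called 0 genes, 1203 at an unadjusted p under 0.05 (edgeR), with Itpkc at 1.95. The sign of Itpk1 reversed to 0.010 with the block and to 0.037 with limma-voom. With each library left out in turn, the log2 fold change ranged from -0.0051 to 0.65 for Itpka, -0.32 to 0.26 for Itpk1, -0.14 to 0.067 for Ip6k1, -0.054 to 0.34 for Itpr1, -0.066 to 0.17 for Itpr2 and -0.19 to 0.20 for Itpr3, so that these directions rest on single libraries. The cause was not tested. Without CBM 3, 678 genes were at an unadjusted p under 0.05. Itpka had 14 to 38 counts per library, and its SD was 40.3% of the mean CPM in CBM and 46.6% in EBM. The part of depth in this spread was not tested.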
